A study of Mus musculus with 10 samples.

Results

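The genes described here are 10 genes of the trophectoderm and of simple epithelia, and the files hold 14 probes for them out of 25697 probes in all. The members are the transcription factor genes Cdx2, Gata2, Gata3, Dlx3 and Tfap2c, the keratin genes Krt8, Krt18, Krt19 and Krt7, and the plakophilin gene Pkp2. They were chosen by gene symbol in the platform annotation, with earlier results of these arrays known, so their agreement with one another is not independent evidence. The trophectoderm is the outer epithelium of the blastocyst, from which the placenta's trophoblast cells arise. In it, factors such as Cdx2, Gata3 and Tfap2c act together to open the trophoblast programme, and the simple keratins Krt8 and Krt18 pair into filaments that are anchored at desmosomes. Embryonic stem cells normally hold this programme down, while endoderm, another epithelium, also uses simple keratins.

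The study used KH2 cells, mouse embryonic stem cells that carry the doxycycline-controlled activator at one site and the inducible transgene at another, in this case V5-tagged Sox17, whose product is an endodermal transcription factor of the HMG-box family. Total RNA was measured on 10 Illumina bead arrays, 5 titled Sox17(+) for expression of the transgene after 48 h of doxycycline (called induced 1 to 5) and 5 titled Sox17(-) for controls (called uninduced 1 to 5). All 10 carry the same cell line and the same transgene, and their treatment field names doxycycline on all 10. Nothing in the labels tells separate cultures from repeat preparations, so the spread behind each p value is that of these samples and may be technical. The description numbers restart at title 4 of each label, and arrays titled 4 and 5 are therefore also compared with lower titles of the same label.

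The arrays did not follow their labels in Sox17. Its probe ILMN_2747986 read 67.3 on induced 1, 13.6 and 11.99 on induced 2 and 3, and 16.6 and 15.006 on induced 4 and 5, against 60.6 and 65.3 on uninduced 4 and 5 and 30.5 to 32.6 on uninduced 1 to 3. The highest reading was thus on induced 1 and the next on uninduced 4 and 5. Whether the probe lies in the part carried by the transgene is not known here. By the pattern of 1358 chemosensory receptor probes, genes that stem cells should hardly use, induced 2 to 5 form an array set of their own and induced 1 falls with the 5 uninduced arrays. The titles may therefore not match the arrays, which was not tested. Every direction below is that of the titles, and those between the labels would turn if the labels were exchanged as a whole. Any other mismatch would also change which arrays are set against each other, within a label too. In whole RNA, fewer cells of a type and less RNA per cell cannot be told apart.

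For orientation, promoter windows of 300 bases are shown for 3 members that are described below, because Krt8 and Krt18 moved together and Cdx2 is the defining trophectoderm factor. The sequences are RefSeq's on GRCm38.p6, read 5′ to 3′ on the gene's strand, with 250 bases before the start and 50 after it. Of the 10 members, 6 had a window in the table. Capitals mark matches, on either strand, to the AP-2 letters GCCNNNGGC or to the GATA letters, which were AGATAA, and also TGATAA, and also AGATAG, and also TGATAG.
Krt8, chr15:102004293-102004592, minus strand: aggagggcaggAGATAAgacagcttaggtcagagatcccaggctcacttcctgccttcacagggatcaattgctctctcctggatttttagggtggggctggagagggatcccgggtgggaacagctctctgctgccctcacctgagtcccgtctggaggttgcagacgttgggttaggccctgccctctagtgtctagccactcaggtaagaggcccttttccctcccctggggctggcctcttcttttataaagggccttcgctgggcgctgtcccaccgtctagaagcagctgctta
Krt18, chr15:102027966-102028265, plus strand: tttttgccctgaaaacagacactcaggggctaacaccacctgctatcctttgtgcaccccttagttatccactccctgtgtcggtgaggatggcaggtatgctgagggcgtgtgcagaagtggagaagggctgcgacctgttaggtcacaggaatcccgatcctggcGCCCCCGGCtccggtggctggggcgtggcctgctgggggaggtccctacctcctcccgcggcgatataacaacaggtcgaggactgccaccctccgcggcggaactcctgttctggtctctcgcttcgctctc
Cdx2, chr5:147307200-147307499, minus strand: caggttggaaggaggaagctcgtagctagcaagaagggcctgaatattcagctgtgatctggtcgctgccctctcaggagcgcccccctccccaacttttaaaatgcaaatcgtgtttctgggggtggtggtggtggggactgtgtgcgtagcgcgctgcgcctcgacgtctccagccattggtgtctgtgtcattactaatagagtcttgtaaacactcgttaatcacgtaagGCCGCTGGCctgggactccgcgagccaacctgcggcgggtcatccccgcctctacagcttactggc
The Krt8 window held 1 GATA match, at -239 from the start, and the Krt18 window held 1 AP-2 match, at -83. Cdx2 held 1 AP-2 match, at -16. Of 32851 such windows in the table, 16.6% held the AP-2 letters and 29.8% a GATA match. ACAATG (SOX), held by 12.6% of windows, and TTTATG (CDX), held by 11.9%, were not in any of these 3 windows. A match is a string of letters and not a shown binding site. Krt8 and Krt18, which encode the partners of one filament, lie on opposite strands of chromosome 15 with 2 annotated genes between them, neither of them protein coding.

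Within each label, arrays titled 4 and 5 differed from the lower titles in 8 of the 9 members that could be tested. Cdx2, Gata2, Dlx3, Krt8, Krt18, Krt19 and Pkp2 fell and Tfap2c rose, in the uninduced arrays (4 and 5 against 1 to 3) and again in the induced arrays (4 and 5 against 2 and 3). Krt7 did not pass the test in either, and Gata3 was too dim to be tested. Beside the 7 of 9 members that fell in each comparison stand 5.03% of all 10084 genes tested in uninduced arrays and 5.0% in induced arrays, and beside the 1 that rose, 5.01% and 3.38% (10% and 8.38% in either direction). Of all genes tested 2.63% fell in both comparisons and 2.1% rose in both, and 0.00992% were called in opposite directions. Both comparisons come from one limma fit over the 10 arrays, on log2 of intensity plus 16, with Benjamini-Hochberg adjustment over all probes and a threshold of 0.05; a log2 difference is followed by its standard error. Induced 1 was kept out of the induced comparison because it lies in the other array set: counted with induced 2 and 3, as its title would have it, it ended all 8 calls there (0 member genes rose and 0 fell, with 2 at an unadjusted p under 0.05 in limma).

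**Figure D1:**
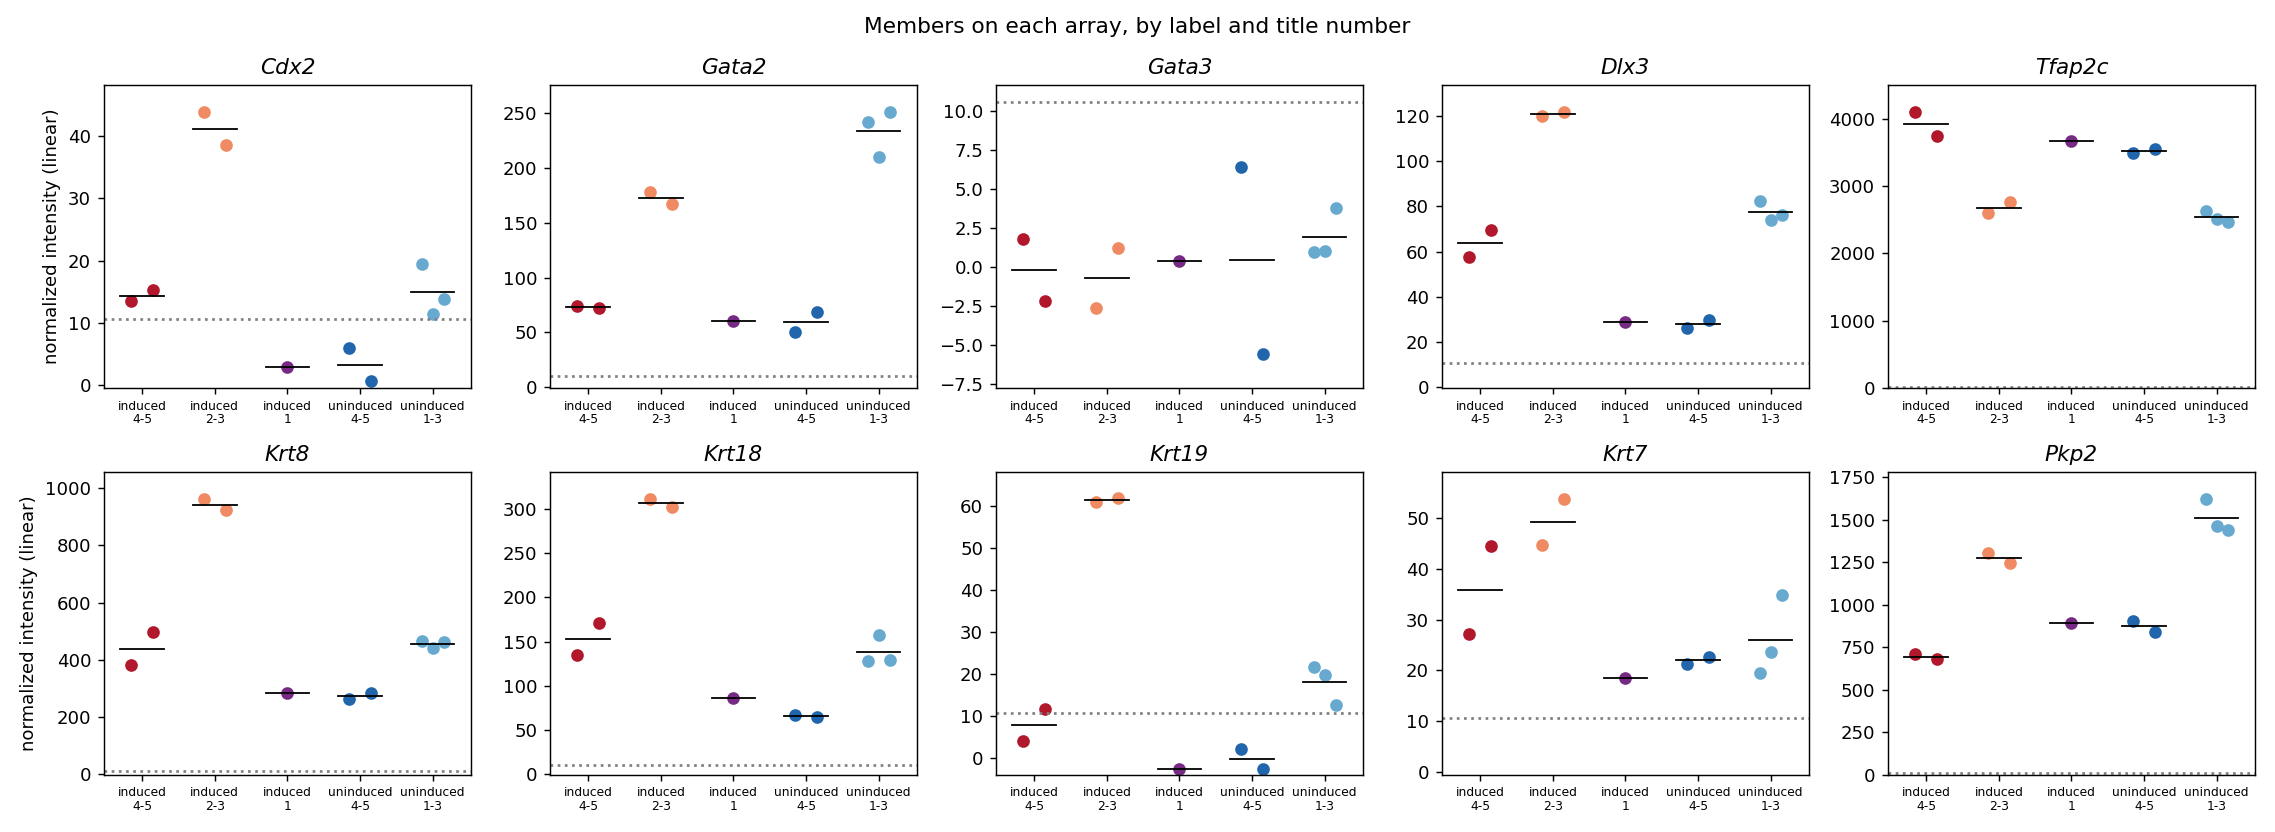
Normalized intensity (linear scale, a scale of its own for each gene) of the 10 members on every array, 1 point per array, grouped by label and title number; bars are group means and the dotted line is the background limit of 10.6. In 7 members induced 1 sits at the level of uninduced 4 and 5 and below uninduced 1 to 3, Tfap2c runs the other way, and Gata3 stays under the limit on all arrays.

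Among the transcription factors Gata2, a zinc-finger factor of trophoblast and blood progenitors, showed the widest change in the uninduced arrays. It read 50.2 and 69.0 on uninduced 4 and 5, against 242, 209 and 250.4 on uninduced 1 to 3, and it read 60.6 on induced 1. Induced 4 and 5 gave 73.7 and 72.4, against 178 and 167 on induced 2 and 3. The groups compared do not overlap in either label, with induced 1 left out. Gata2 fell by 1.73 ± 0.12 in uninduced arrays (limma adjusted p = 6.82e-05) and by 1.08 ± 0.13 in induced arrays (limma adjusted p = 0.00157).

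Dlx3, a homeobox factor needed in placenta and in skin appendages, had a like course at a lower reading. It read 26.2 and 29.6 on uninduced 4 and 5, against 82.2, 74.1 and 76.1 on uninduced 1 to 3, and 28.6 on induced 1. Among induced arrays, titles 4 and 5 read 57.8 and 69.5, against 120.2 and 122 on induced 2 and 3. With induced 1 left out, these groups too were apart on every array, with falls of 1.09 ± 0.09 (limma adjusted p = 0.000196) and 0.79 ± 0.10 (limma adjusted p = 0.00203).

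Cdx2, the caudal homeobox factor that specifies trophectoderm, was dim, and under or near the background limit on all arrays except induced 2 and 3. On uninduced 4 and 5 it read 5.9 and 0.608 and on induced 1 it read 2.93, all under the background limit of 10.6, against 19.4, 11.4 and 13.8 on uninduced 1 to 3. On induced 4 and 5 it read 13.5 and 15.3, against 43.9 and 38.5 on induced 2 and 3. In uninduced arrays it was at least 1.37-fold lower on titles 4 and 5 (limma adjusted p = 0.0186), a bound set by the limit, and in induced arrays it fell by 0.91 ± 0.16 (limma adjusted p = 0.00815). These 2 calls were the least firm of the 7 falls. The uninduced one was lost without uninduced 1 (log2 difference -0.58, adjusted p = 0.0527) and without uninduced 5 (-0.49, 0.124). The induced one was lost without induced 2 (-0.85, 0.0614) and without induced 4 (-0.87, 0.0502).

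Gata3, a trophectoderm factor in its own right, lay under the limit on 10 of 10 arrays, with readings from -5.56 to 6.44, and no fold is given for it. Its probe gives a bound only and does not show that the gene was silent.

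Tfap2c, which encodes AP-2 gamma and is shared by trophectoderm, germ cells and naive embryonic stem cells, was the one member that rose. Its probe ILMN_2783225 read 3502 and 3551 on uninduced 4 and 5, against 2628, 2516 and 2467 on uninduced 1 to 3, and 3679.5 on induced 1. Induced 4 and 5 gave 4098 and 3752, against 2596 and 2768 on induced 2 and 3. The rises were 0.47 ± 0.08 (limma adjusted p = 0.00862) and 0.55 ± 0.09 (limma adjusted p = 0.00673), smaller than any of the 7 falls. The other Tfap2c probes, ILMN_2783226 and ILMN_1231632, rose as well, by 0.63 and 0.56 in uninduced arrays and by 0.56 and 0.55 in induced arrays. Without uninduced 5 the first rise was 0.46 and was no longer called (limma adjusted p = 0.0574), and without induced 2 the other was 0.50 (0.0547).

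Of the keratins, Krt8, the type II partner, read 264 and 283 on uninduced 4 and 5, against 467, 441 and 463 on uninduced 1 to 3, and 283 on induced 1. Among induced arrays, titles 4 and 5 read 381 and 496, against 962 and 922 on induced 2 and 3. Titles 4 and 5 lay below uninduced 1 to 3 and below induced 2 and 3 without overlap, but induced 1 lay below induced 4 and 5. Krt8 fell by 0.71 ± 0.11 in uninduced arrays (limma adjusted p = 0.00522) and by 1.09 ± 0.12 in induced arrays (limma adjusted p = 0.000929).

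Krt18, the type I partner of Krt8, moved by a like amount. It read 66.5 and 64.4 on uninduced 4 and 5, against 128, 158 and 129 on uninduced 1 to 3, and 85.7 on induced 1. On induced 4 and 5 it read 135 and 171, against 311 and 302 on induced 2 and 3. It fell by 0.92 ± 0.12 (limma adjusted p = 0.00207) and by 0.94 ± 0.13 (limma adjusted p = 0.00284).

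Krt19, the smallest of the type I keratins, was dim and dropped to the limit. It read 2.23 and -2.51 on uninduced 4 and 5 and -2.64 on induced 1, all under the limit, against 21.7, 19.8 and 12.5 on uninduced 1 to 3. Induced 4 and 5 gave 4.17 and 11.6, against 60.8 and 61.9 on induced 2 and 3. It was at least 1.652-fold lower on uninduced 4 and 5 (limma adjusted p = 0.0058), a call lost without uninduced 5 (log2 difference -0.89, adjusted p = 0.0509). In the induced arrays it fell by 1.71 ± 0.17 (limma adjusted p = 0.000512), with 1 of the 2 arrays titled 4 and 5 under the limit.

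Krt7, a type II keratin of simple epithelia and trophoblast, was the keratin whose titles did not differ by the test. It read 21.2 and 22.7 on uninduced 4 and 5, against 19.6, 23.5 and 34.9 on uninduced 1 to 3, with overlap, and 18.5 on induced 1. Among induced arrays, titles 4 and 5 read 27.2 and 44.5, against 44.7 and 53.8 on induced 2 and 3. The log2 differences were -0.13 (95% interval -0.53 to 0.27) and -0.35 (-0.79 to 0.09). The log2 difference estimated for Krt8 lies outside the interval in each label. The constant added before log2 was taken shrinks changes more at the low readings of Krt7 than at those of Krt8. These intervals therefore do not exclude that Krt7 fell by the same fold in intensity as Krt8.

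Pkp2, a desmosomal armadillo protein that links keratin filaments to the junction, was read by 3 probes that gave one picture. Probe ILMN_2927565 read 903 and 841 on uninduced 4 and 5, against 1621, 1463 and 1439.7 on uninduced 1 to 3, and 891 on induced 1. On induced 4 and 5 it read 710.2 and 678, against 1306 and 1245 on induced 2 and 3. It fell by 0.78 ± 0.09 (limma adjusted p = 0.00091) and by 0.86 ± 0.10 (limma adjusted p = 0.000878). The other probes fell by 0.89 each in uninduced arrays, and by 0.91 and 0.94 in induced arrays.

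**Figure D2:**
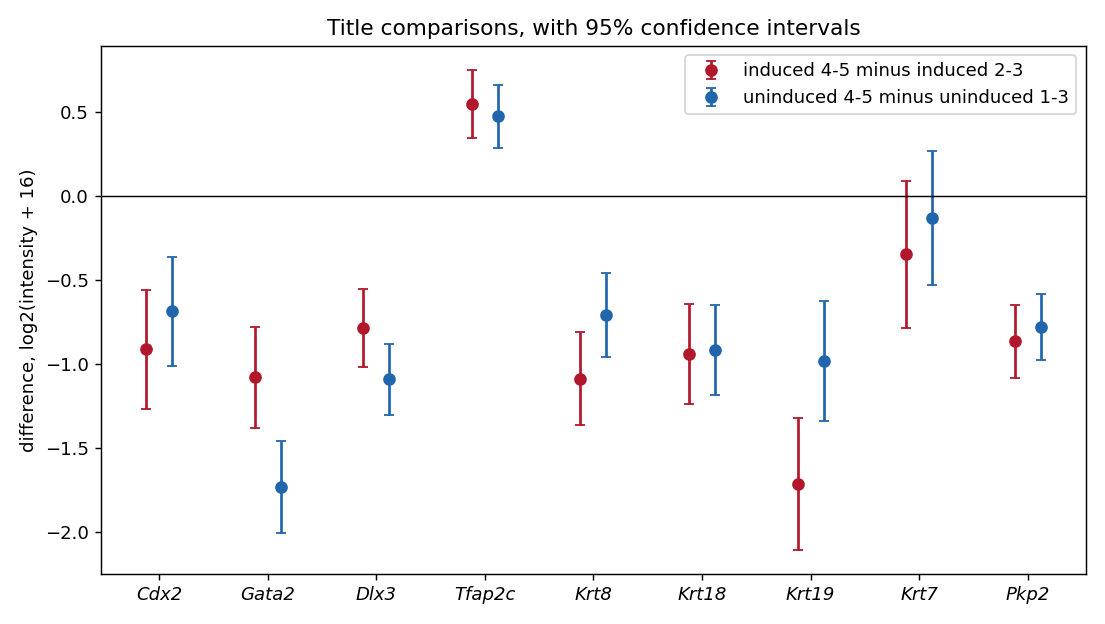
Log2 differences (intensity plus 16) of the 9 members tested, titles 4 and 5 minus the lower titles of the same label, as points with 95% confidence intervals, for induced and for uninduced arrays. Of the 9, 7 lie below 0 and Tfap2c above 0 in both labels, while both intervals of Krt7 cross 0.

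The sizes were compared between the labels by the difference of the differences. None of the 9 members passed that test in limma (3 at an unadjusted p under 0.05, and 0.0198% of all genes called). For Gata2 the induced comparison was less negative by 0.65 ± 0.18 (limma unadjusted p = 0.00539, adjusted p = 0.24). Krt19 was more negative by 0.73 ± 0.23 in induced arrays (limma adjusted p = 0.291), but it lies under the limit on uninduced 4 and 5, which caps its change there. Krt8 differed by -0.38 (95% interval -0.75 to -0.005) and Krt18 by -0.02 (-0.42 to 0.38).

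**Figure D3:**
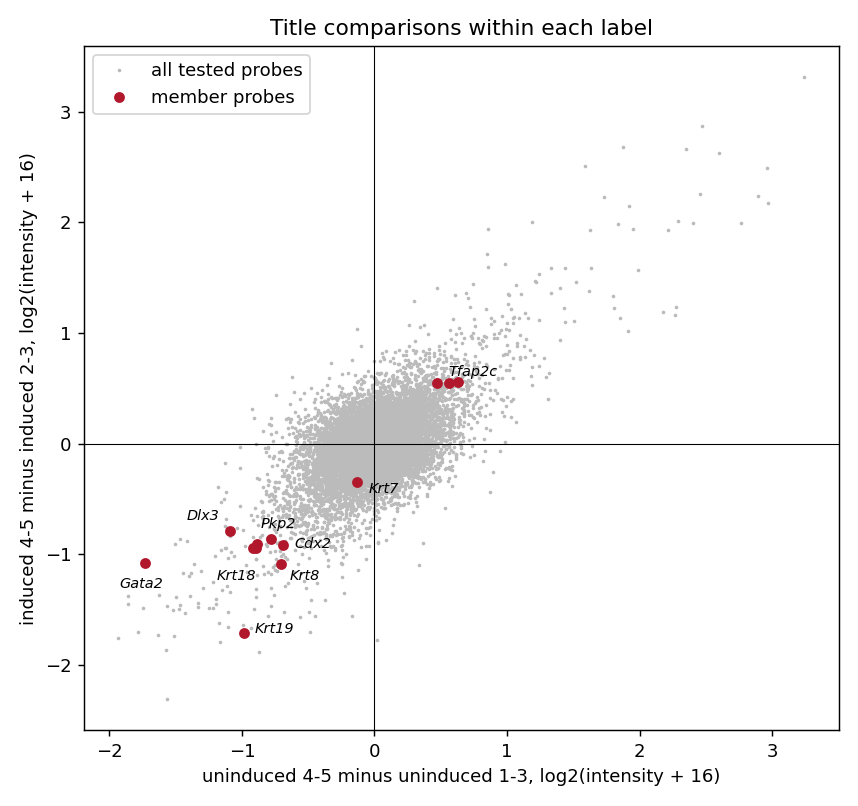
Each tested probe's log2 difference of titles 4 and 5 minus lower titles, in uninduced arrays (x axis) and in induced arrays (y axis), with the 13 tested member probes in red and the rest in grey. The member probes lie in the lower left, except Tfap2c in the upper right and Krt7 near the centre.

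Over the 10 arrays, after each array set was centred on its own mean, the genes whose log2 values were most like those of Tfap2c were Rell1 (Pearson r = 0.993), Apobec1 (0.992), Fam167a, Lrig1 and Ptpn18 (0.989 each). These values describe 10 arrays that fall into groups, and they carry no test. Among the members, chosen after their values were seen, Gata2 and Dlx3 were the closest pair (r = 0.988), and Krt8 stood at 0.978 with Krt19 and 0.956 with Krt18. Id2 and Id1, inhibitors of basic helix-loop-helix factors, stood at 0.989 and 0.988 with Gata2.

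Between the labels as titled, the study's own question of what 48 h of Sox17 changes, none of the 9 members passed the test, beside 8.5% of all genes that rose and 11% that fell, 19.5% in all (limma, 0 members at an unadjusted p under 0.05). The estimates were positive for 7 members, the highest 0.73 ± 0.33 for Krt18 (mean 201 ± 101 on induced arrays and 109 ± 41.6 on uninduced arrays, SD, n = 5 each, limma adjusted p = 0.129), and negative for Gata2 (-0.40 ± 0.43) and Pkp2 (-0.37 ± 0.24). Each of these groups spans arrays of high and low title, and the arrays overlapped for all 9. Probe ILMN_1231632 of Tfap2c was the exception among the probes: it read 419, 435, 513, 717 and 684 on induced 1 to 5, against 257, 276, 250.2, 370.2 and 418 on uninduced 1 to 5. That probe was higher on every induced array and rose by 0.78 ± 0.19 (limma adjusted p = 0.0234), whereas ILMN_2783225 and ILMN_2783226 stood at 0.20 ± 0.16 and 0.12 ± 0.18 and were not called. On induced 1 it exceeded uninduced 5 by a small margin, so its call rests mainly on induced 2 to 5. Without induced 1, Cdx2 (0.71), Krt18 (0.97) and Krt7 (0.53) were called higher, beside 3390 probes higher and 3431 lower of 14985 tested. Calls were thus common among all probes in that setting, and label and array set then coincide.

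With titles matched, Krt8, Krt18, Cdx2 and Dlx3 were higher on the induced arrays in both comparisons, in which label and array set cannot be told apart. These comparisons were added after the data had been seen. Sox17 itself was lower on the induced arrays in both, with log2 differences of -0.73 ± 0.08 for induced 2 and 3 against uninduced 1 to 3 (limma adjusted p = 0.000325) and -1.31 ± 0.09 for titles 4 and 5 (limma adjusted p = 8.52e-05), opposite to what the titles name. Induced 2 and 3 against uninduced 1 to 3 gave rises of Krt19 (1.20 ± 0.16), Krt18 (1.07 ± 0.12), Krt8 (1.02 ± 0.11), Cdx2 (0.90 ± 0.14), Krt7 (0.65 ± 0.18) and Dlx3 (0.55 ± 0.09). Gata2 fell (-0.41 ± 0.12), and Tfap2c (0.08 ± 0.08) and Pkp2 (-0.24 ± 0.09) were not called. Thus 6 of 9 members rose and 1 fell, beside 18.7% and 22.4% of all genes (41.1% in all) in limma. Other probes differed: ILMN_1231632 of Tfap2c rose (0.82 ± 0.10) and ILMN_2637122 of Pkp2 fell (-0.39 ± 0.08). ILMN_2783226 of Tfap2c (0.03) and ILMN_2665948 of Pkp2 (-0.23) were not called. Induced 4 and 5 against uninduced 4 and 5 gave rises of Krt18 (1.05 ± 0.13), Dlx3 (0.86 ± 0.10), Cdx2 (0.67 ± 0.16) and Krt8 (0.64 ± 0.12) and a fall of Pkp2 (-0.32 ± 0.10), beside 16.2% and 21.5% of all genes (37.7% in all). Krt19 (0.47 ± 0.17), Krt7 (0.43 ± 0.19), Gata2 (0.25 ± 0.13) and Tfap2c (0.15 ± 0.09) were not called there. Again ILMN_1231632 of Tfap2c was called higher (0.81 ± 0.11) and ILMN_2783226 was not called (-0.03). The other Pkp2 probes fell as well (-0.41 and -0.28). With the array set as a block, which leaves induced 1 as the only induced array to carry the label, the limma fit held 0 calls (724 probes passed an unadjusted p under 0.05), and the estimates of Krt8, Krt18, Krt19, Krt7, Cdx2 and Dlx3 turned negative.

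**Figure D4:**
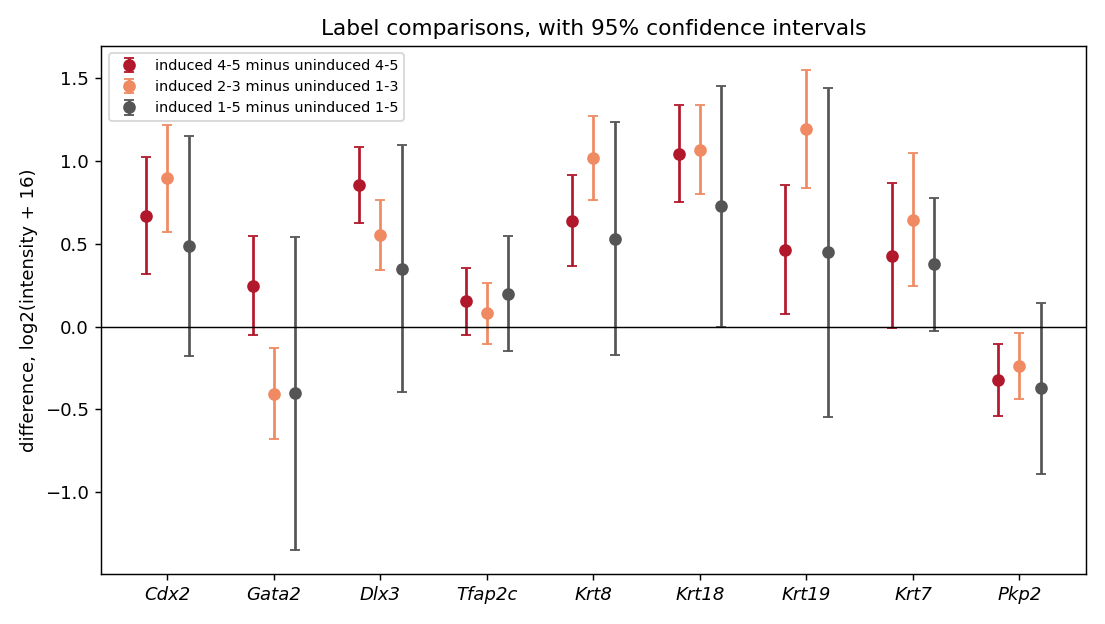
Log2 differences (intensity plus 16) of the 9 members tested, induced minus uninduced, as points with 95% confidence intervals, for titles 4 and 5, for induced 2 and 3 against uninduced 1 to 3, and for all 10 arrays. The intervals over all 10 arrays are wide and reach 0 for each member, while Krt8, Krt18, Cdx2 and Dlx3 lie above 0 in both matched comparisons.

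Other trophectoderm and trophoblast genes did not move together. Of 18 tested, 2 rose and 4 fell on uninduced 4 and 5, and 3 rose and 4 fell on induced 4 and 5. The medians were -0.03 and 0.03, beside -0.01 for all genes in each. Of all genes, 5.01% rose and 5.03% fell in uninduced arrays, and 3.38% rose and 5.0% fell in induced arrays. A larger part of this list than of all genes was thus called, in each direction. The list was chosen with earlier results of these arrays known, so these shares are not independent evidence. Between the labels 8.5% of all genes rose and 11% fell. The same shares stand beside the counts of the lists that follow. Sox21, a Sox factor active in the early embryo, rose by 2.21 ± 0.08 in uninduced and 1.93 ± 0.09 in induced arrays; paired values of the genes that follow keep this order of labels. Among the falls, the signalling gene Bmp8b fell by 0.43 ± 0.10 and 1.26 ± 0.11, and the chromatin organizer Satb1 by 0.41 ± 0.11 and 0.81 ± 0.12. Fgfr2, the FGF receptor of trophoblast stem cells, rose in induced arrays alone by the test (0.77 ± 0.18), and the difference between the labels was not called. In this list, Elf5, Hand1, Plet1, Tpbpa and Hopx lay under the limit on all 10 arrays, and Eomes read 20.03 to 40.2. These are 5 of the 26 genes of the list on the array, and a reading under the limit does not show that a gene was silent. Tead4, the TEAD factor that acts upstream of Cdx2, read higher on titles 4 and 5 of each label, opposite to Cdx2. It read 76.4 and 88.1 on uninduced 4 and 5, against 42.1, 53.5 and 39.1 on uninduced 1 to 3. Induced 4 and 5 gave 122.7 and 97.9, against 74.0 and 67.1 on induced 2 and 3, and induced 1 gave 69.2. Between the labels 1 gene of this list rose (Aqp3, 0.90 ± 0.26) and 2 fell (Satb1, -1.16 ± 0.27, and Klf6). Induced 1 did not share these changes. Aqp3 read 131 on it, below all uninduced arrays (141 to 181). Satb1 (838) and Klf6 (1849) lay on it within the range of the uninduced arrays. The calls rest on induced 2 to 5, which form the other array set.

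Of 12 Hippo pathway genes, which gate Cdx2 in the embryo, Amotl2, a scaffold that holds YAP back, rose in both title comparisons (0.67 ± 0.12 and 0.62 ± 0.13). The YAP target Ccn2 fell in induced arrays (-0.80 ± 0.13), and 0 fell in uninduced arrays. Of 10 other keratins and intermediate filament genes, Krt42 rose in both (0.50 ± 0.09 and 0.81 ± 0.10), Krt17 rose in uninduced arrays (0.39 ± 0.10) and the stem and progenitor filament gene Nes fell in induced arrays (-0.64 ± 0.16). Krt1, Krt5 and Krt23 lay under the limit throughout. Of 5 tested desmosome and plakin genes the desmosomal cadherin Dsg2 rose in uninduced arrays (0.78 ± 0.14) and 0 fell, while induced arrays held 0 calls. Of 14 genes of simple epithelium and tight junction, the epithelial factors Elf3 (0.78 ± 0.08 and 0.95 ± 0.09) and Grhl2 (0.62 ± 0.11 and 0.64 ± 0.12) rose in both, and occludin, Ocln, fell in induced arrays (-0.81 ± 0.15). Between the labels, Hippo genes held 0 rises and 2 falls, the other filament genes 3 and 1, desmosome genes 1 and 0, and epithelial genes 1 and 2. Beside these counts stand 8.5% of all genes that rose and 11% that fell, 19.5% in all.

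Of 6 tested relatives of the factors, Gata6, the GATA factor of primitive endoderm, rose by 2.27 ± 0.13 in uninduced arrays and by 1.16 ± 0.14 in induced arrays, opposite to Gata2. Tfap2a was at least 2.17-fold higher on induced 4 and 5, since induced 2 and 3 lay under the limit (limma adjusted p = 0.0244), and 0 relatives fell in either title comparison. Between the labels 1 relative fell, Tfap2e, and 0 rose.

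A part of the endoderm markers rose in the title comparisons. Of 17 tested extraembryonic endoderm genes 9 rose and 0 fell on uninduced 4 and 5, beside 5.01% and 5.03% of all genes. On induced 4 and 5, 6 rose, 1 fell and 10 were not called, beside 3.38% and 5.0% of all genes that rose and fell. The medians were 0.51 and 0.04. Sox7 read lower on induced 4 and 5 (60.2 and 59.2) than on induced 2 and 3 (72.3 and 76.5). The basement membrane genes Col4a1 (2.89 ± 0.11 and 2.24 ± 0.13) and Col4a2 (2.77 ± 0.08 and 2.00 ± 0.09) and the forkhead gene Foxq1 (2.28 ± 0.11 and 1.23 ± 0.13) were among the rises, beside Gata6. Summed over the 23 probes of the list, intensities were 14174 to 14577 on induced 4 and 5, against 9740.4 to 10582 on induced 2 and 3. The sums were 20375 to 21829 on uninduced 4 and 5, against 10391 to 10484 on uninduced 1 to 3, and 21584 on induced 1. A few bright matrix genes make up most of each sum. Lamc1 alone read 6079 and 5670 on uninduced 4 and 5, and 3687 and 3912 on induced 4 and 5. Between the labels 1 gene of this list rose and 3 fell. Thbd, Afp and Ttr lay under the limit on all arrays. The part of endoderm cells in the changes of the members was not tested. Of 12 pluripotency genes tested, 0 rose and 1 fell in uninduced arrays and 1 rose and 1 fell in induced arrays, with medians of -0.02 and 0.01. Fgf4 fell in both comparisons (-0.60 ± 0.09 and -0.75 ± 0.10) and Pou5f1 rose in induced arrays (0.43 ± 0.10), while between the labels 1 rose and 4 fell, with a median of -0.22, beside 8.5% and 11% of all genes.

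Of 4 fibroblast markers tested, Thy1 fell on titles 4 and 5 of both labels (-0.75 ± 0.11 and -0.72 ± 0.12) and 0 rose, and between the labels 2 rose and 2 fell. The sum over 10 probes was 142 to 145 on induced 4 and 5, against 184 to 191 on induced 2 and 3. It was 209.6 to 219 on uninduced 4 and 5, against 335 to 348 on uninduced 1 to 3, and 224 on induced 1. Thy1 alone made up most of the sum on the uninduced arrays, with 153 and 158 on uninduced 4 and 5, against 267, 270.4 and 277 on uninduced 1 to 3. Col3a1, Postn, Lum and Dcn lay under the limit on all arrays, and the part of feeder cells in the members' falls was not tested. Of the surface ectoderm markers, 4 were tested: Krt17 rose in uninduced arrays and Tfap2a in induced arrays, 2 rose and 0 fell between the labels, and Trp63, Krt5, Dlx5, Perp and Dsc3 lay under the limit on all arrays.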

How the data were processed

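Total RNA, cleaned and DNase-treated, was amplified to biotinylated cRNA for Illumina arrays, per the labels' protocols. The deposited values are linear intensities, 1 per probe and array. Judged from the values, the authors subtracted background (25.5% of values lie below 0) and normalized the arrays to each other (the 75th percentile is 250.0 on each array); the software used is not given in the sources at hand. A second table holds 20 columns of unnormalized signals and detection p-values under sample numbers that no label gives, and was not used here.

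Of 25697 probes, 23978 carry 1 gene symbol in the platform annotation, 1719 carry none, and 23962 were matched to RefSeq through the Entrez identifier. Intensities were floored at 0, 16 was added and log2 taken. The background limit, 10.6, is the 95th percentile of a normal distribution whose SD, 6.45, came from values below 0. Probes above it on at least 5 of 10 arrays were tested (14985), and a gene was read by its probe of highest mean. Tests were two-sided in limma 3.58.1 (R 4.3.3) with Benjamini-Hochberg adjustment: induced minus uninduced, and a model of 5 means (induced 4 and 5, induced 2 and 3, induced 1, uninduced 4 and 5, uninduced 1 to 3). The fits were tested on simulated data. With arrays, their number limits the precision.

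Members, gene lists and the title comparisons were chosen with earlier results of these data known. Besides the members and Sox17, the rule named up to 4 called genes of each list by title comparison, up to 2 by label, and the 5 genes most like the member of highest mean called alike in both title comparisons. The lists covered trophectoderm and trophoblast, the Hippo pathway, other keratins and filaments, desmosome, simple epithelium, related factors, extraembryonic endoderm, pluripotent cells, germ cells, surface ectoderm and fibroblasts. Klf6 was named beyond the rule, after its value was seen, and so were Id2 and Id1, picked from the genes most like Gata2. Tead4, Eomes and Lamc1 also fall outside the rule. "At least" marks a fold against a group under the limit on all its arrays, computed without the added 16 and with values raised to the limit. Alternatives were another added constant (64), no filter, a stricter limit (15.0), a limit passed on 2 arrays, quantile normalization, blocks by array set, title number and title stretch, single stretches, the arrays of one label alone, induced 1 counted with induced 2 and 3, other probes, and each array left out.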

Additional observations from a re-analysis of the deposited data

How the results depend on the processing

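In the title comparisons the 7 falls and the rise of Tfap2c kept their direction under each alternative that tested them. Cdx2 and Krt19 were not tested with the stricter limit, which left 5 falls in each comparison. Induced 1, counted with induced 2 and 3, left 41 probes higher and 150 lower on induced 4 and 5, and 0 and 0 members. With the induced arrays alone 240 probes rose and 334 fell, and 0 members rose, since Tfap2c was no longer called (0.55, limma adjusted p = 0.0562). With 64 added, 1116 probes rose and 1089 fell in the uninduced arrays. Cdx2 lost its call in uninduced arrays with 64 added (-0.23), without the filter (-0.69) and with the uninduced arrays alone (-0.69), and in induced arrays without the filter (-0.91). With 1 array left out, 327 to 700.0 probes rose and 333 to 692 fell in the uninduced comparison, with 0 to 1 members higher and 5 to 7 lower; in the induced comparison 246 to 470.0 rose and 322 to 651 fell, with 0 to 1 and 6 to 7 members. Krt7 ranged from -0.24 to 0.0173 in uninduced arrays, turning without uninduced 3.

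Between the labels, calls depended on the arrays kept. Probes higher and lower were 1358 and 1561 over all 10 arrays, 289 and 260.0 without the filter, 0 and 0 with the array set as a block (limma, 724 at an unadjusted p under 0.05), 0 and 0 for titles 1 to 3 (limma, 2987 unadjusted) and 2044 and 2356 for titles 4 and 5. In the model of 5 means they were 2992 and 3169 for induced 2 and 3 against uninduced 1 to 3, and 2717 and 2996 for titles 4 and 5. With 1 array left out they ran from 12 to 3390.0 and from 2 to 3431, with 0 to 3 members higher. Members higher and lower were 6 and 1, and 4 and 1, in the 2 comparisons of that model; 4 rose for titles 4 and 5 fitted alone and 1 fell, Pkp2, with the title stretch as a block. With the array set as a block the signs turned for Cdx2 (-0.42), Dlx3 (-0.63), Krt8 (-0.38), Krt18 (-0.23), Krt19 (-0.68) and Krt7 (-0.22), and for titles 4 and 5 that of Gata2 (0.25). The title numbers were not used to pair the arrays in the main tests. After label means were taken off, same-numbered arrays correlated at -0.06 to 0.31, and 1 of 5 induced arrays was closest to its own number. Induced 2 to 5 were each closest to an array of their own title stretch, so this check cannot decide on pairing within a stretch. Title number as a replicate block gave 1509 probes higher and 1835 lower, and 0 and 0 members.

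For the difference between the title comparisons, 0 probes were higher and 2 lower in limma (1766 at an unadjusted p under 0.05), 14 and 69 with 64 added, 13 and 23 without the filter, 9 lower with the stricter limit, and 0 lower with the limit passed on 2 arrays or with induced 1 counted with induced 2 and 3; with 1 array left out 0 to 2 were lower. With induced 1 so counted, signs turned for Cdx2 (0.31), Tfap2c (-0.0788), Krt8 (0.18), Krt18 (0.53), Krt19 (0.0282), Krt7 (0.0878) and Pkp2 (0.085), and they differed at other Tfap2c probes (-0.0123 and -0.0658). With 1 array left out Krt18 ranged from -0.18 to 0.13 and Krt7 from -0.46 to 0.0256. The causes of these changes were not tested. Readings of Cdx2, Krt19 and Gata3 near or under the limit bound their changes only.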

Other observations

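Of 6 germ cell genes tested, a cell type with which Tfap2c is shared, 1 rose and 1 fell in uninduced arrays and 1 rose and 0 fell in induced arrays, beside 10% and 8.38% of all genes called in either direction. Dppa3, a maternal and germ cell factor that is also found in naive stem cells, rose in both title comparisons, by 0.57 ± 0.09 in uninduced arrays and by 1.03 ± 0.09 in induced arrays. It read 370 and 385 on uninduced 4 and 5, against 238, 239 and 271 on uninduced 1 to 3, and 681 and 689 on induced 4 and 5, against 335 and 322 on induced 2 and 3. Ddx4, the germline helicase, fell in uninduced arrays (-0.61 ± 0.16), and between the labels 0 genes of this list rose or fell in limma. Sox7, a relative of Sox17, was the 1 listed gene whose title comparisons differed between the labels (-1.15 in induced minus uninduced arrays, limma adjusted p = 0.0285). It read 60.2 and 59.2 on induced 4 and 5, against 72.3 and 76.5 on induced 2 and 3, and 215 and 225 on uninduced 4 and 5, against 116, 109.8 and 107 on uninduced 1 to 3.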
